A study of Mus musculus with 10 samples.

Results

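The genes described are 10 components of epithelial cell contacts in mouse ES cells: the cadherins Cdh1, Cdh2 and Cdh3, the catenins Ctnnb1 and Ctnna1, the adhesion molecule Epcam, the scaffold Tjp1 and the claudins Cldn4, Cldn6 and Cldn7. They were chosen by symbol, and all 10 were found among the 30677 genes of the RNA-seq count table and among the 20027 genes with enough reads to be tested. The libraries came from TNGA cells, a mouse ES line with a GFP reporter at 1 Nanog allele, grown in serum and LIF. Cells received 100 μM MB-3, an inhibitor of the histone acetyltransferase Kat2a, for 48 hours, or the vehicle DMSO alone, so that both groups contained 0.1% DMSO. Each treatment had 3 libraries, lettered A, B and C, with 46863700 to 51137896 counts in DMSO and 42270312 to 49334434 in MB-3. The libraries are bulk RNA, in which fewer cells of a type and less RNA per cell cannot be told apart.

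Classical cadherins are calcium-dependent adhesion proteins that bind the same cadherin on the neighbouring cell, and their cytoplasmic tails hold β-catenin, which in turn binds α-catenin and the actin cytoskeleton. Mouse ES cells express E-cadherin and grow as compact colonies. When cells pass through the primitive streak they typically lose E-cadherin and gain N-cadherin, and transcription factors of the Snail, Zeb and Twist families repress E-cadherin by binding E-box sequences in its promoter. Claudins and Tjp1 build the tight junction, and Epcam marks epithelial and undifferentiated ES cells.

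The labelled cell type was checked against its markers. Pou5f1, which encodes Oct4, was measured at 650 to 713 CPM (counts scaled to library size, where 42.9 to 50.2 reads made 1 CPM) in DMSO and 652 to 717 CPM in MB-3, and the 12 ES cell markers summed to 5085 ± 277 and 4979 ± 163 CPM (SD, n = 3), with Dppa5a the most abundant. None of the 12 was below 1 CPM in every library. The 12 log2 fold changes went both ways, 7 above 0 and 5 below, with a median of 0.013. Tbx3, a transcription factor of the naive network, was the 1 marker to pass by treatment alone. It fell after MB-3 (log2 fold change -0.40 ± 0.06 (SE), edgeR adjusted p = 0.0243), though its antisense partner Tbx3os1 overlaps it. With the library letter as a replicate block, Tbx3 fell and Utf1 rose (0.28, edgeR adjusted p = 0.00229). That is 8.33% of the list in each direction, beside 3.9% of all tested genes lower and 3.22% higher.

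Since the repressors of E-cadherin bind E-boxes, the sequence before the start sites was searched for the E-box CAGGTG and its reverse complement CACCTG, on both strands, in the 250 bases upstream of each RefSeq start site (GRCm38.p6). Of 32851 such windows across the genome, 17.2% held a match. Windows were searched for 6 of the 10 genes, and 4 of their 8 windows held a match, in Epcam, Cldn4, Cldn6 and Cldn7. The windows of Ctnnb1 and Tjp1 held none. Cdh1, Cdh2, Cdh3 and Ctnna1 were not searched. The upstream sequence of Epcam, at chr17:87635729-87635978 on the plus strand, and that of Cldn4, at chr5:134946935-134947184 on the minus strand, are shown because they hold the matches closest to a start site, 19 and 14 bases before it. Capitals mark the matches to the searched E-box, and other E-box forms were not searched.
Epcam: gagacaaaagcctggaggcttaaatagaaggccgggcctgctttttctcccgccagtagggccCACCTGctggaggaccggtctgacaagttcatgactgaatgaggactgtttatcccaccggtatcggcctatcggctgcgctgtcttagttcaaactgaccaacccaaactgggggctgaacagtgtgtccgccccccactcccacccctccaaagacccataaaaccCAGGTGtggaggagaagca
Cldn4: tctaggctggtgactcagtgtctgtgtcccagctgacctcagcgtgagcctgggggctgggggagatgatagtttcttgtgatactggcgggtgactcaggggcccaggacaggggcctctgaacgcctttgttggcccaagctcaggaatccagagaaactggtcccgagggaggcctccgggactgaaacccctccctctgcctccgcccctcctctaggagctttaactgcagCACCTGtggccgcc
The matches of Cldn6, 93 bases before its RefSeq start at chr17:23679262-23679287, and of Cldn7, 97 and 57 bases before the downstream of its start sites at chr11:69965314-69965339 and chr11:69965354-69965379, are all on the plus strand and are given with 10 flanking bases.
Cldn6: gaaacgcacgCAGGTGgctatcgccg
Cldn7, distal: tcttcctcttCACCTGgacgaggagg
Cldn7, proximal: acttccggttCAGGTGagtgtccctt
These are matches of letters. Binding was not measured, and the genes with and without a match were not compared.

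The first question was how abundant each junction component was. Levels were divided by the length of the merged exons, so that genes could be compared with one another. The catenins and E-cadherin led. Ctnnb1, which encodes β-catenin, was highest at 137.9 CPM per kb over the 6 libraries, followed by Ctnna1 (α-catenin) at 95.1 and Cdh1 at 84.1 CPM per kb. The ranges of Ctnna1 and Cdh1 overlapped. Epcam at 54.4 and Cldn4 at 53.9 CPM per kb came next, again with overlapping ranges, and then Cldn6 at 38.1 and Tjp1 at 18.5 CPM per kb. Cdh3, which encodes P-cadherin, and Cldn7 lay together at 8.54 and 8.13 CPM per kb. Cdh2, which encodes N-cadherin, was the lowest member at 1.17 CPM per kb and did not reach 1.70 CPM per kb in any library. All other neighbours in this order had separate ranges, though only just for Cldn4 (lowest 48.7) and Cldn6 (highest 48.5 CPM per kb).

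The second question was whether MB-3 changed these levels. N-cadherin and P-cadherin were the members that separated by treatment. Cdh2 was lower in every MB-3 library than in every DMSO library and Cdh3 was higher, whereas the groups overlapped for the other 8 genes. Such separation was found for 15.6% of all tested genes, with MB-3 above DMSO for 8.22% and below it for 7.37%. In the edgeR fit with treatment as the only term, 1 of the 10 genes passed an adjusted p of 0.05, Cdh3, against a background of 0.205% of all tested genes, with 0.0999% higher and 0.105% lower in MB-3. The same letter marked libraries that deviated together, and with the letter as a replicate block 3 members passed, Cdh3 higher and Cdh2 and Cldn6 lower, against 7.12% of all tested genes (3.22% higher and 3.9% lower). The median log2 fold change was -0.02 over the 10 genes and -0.001 over all tested genes.

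**Figure D1:**
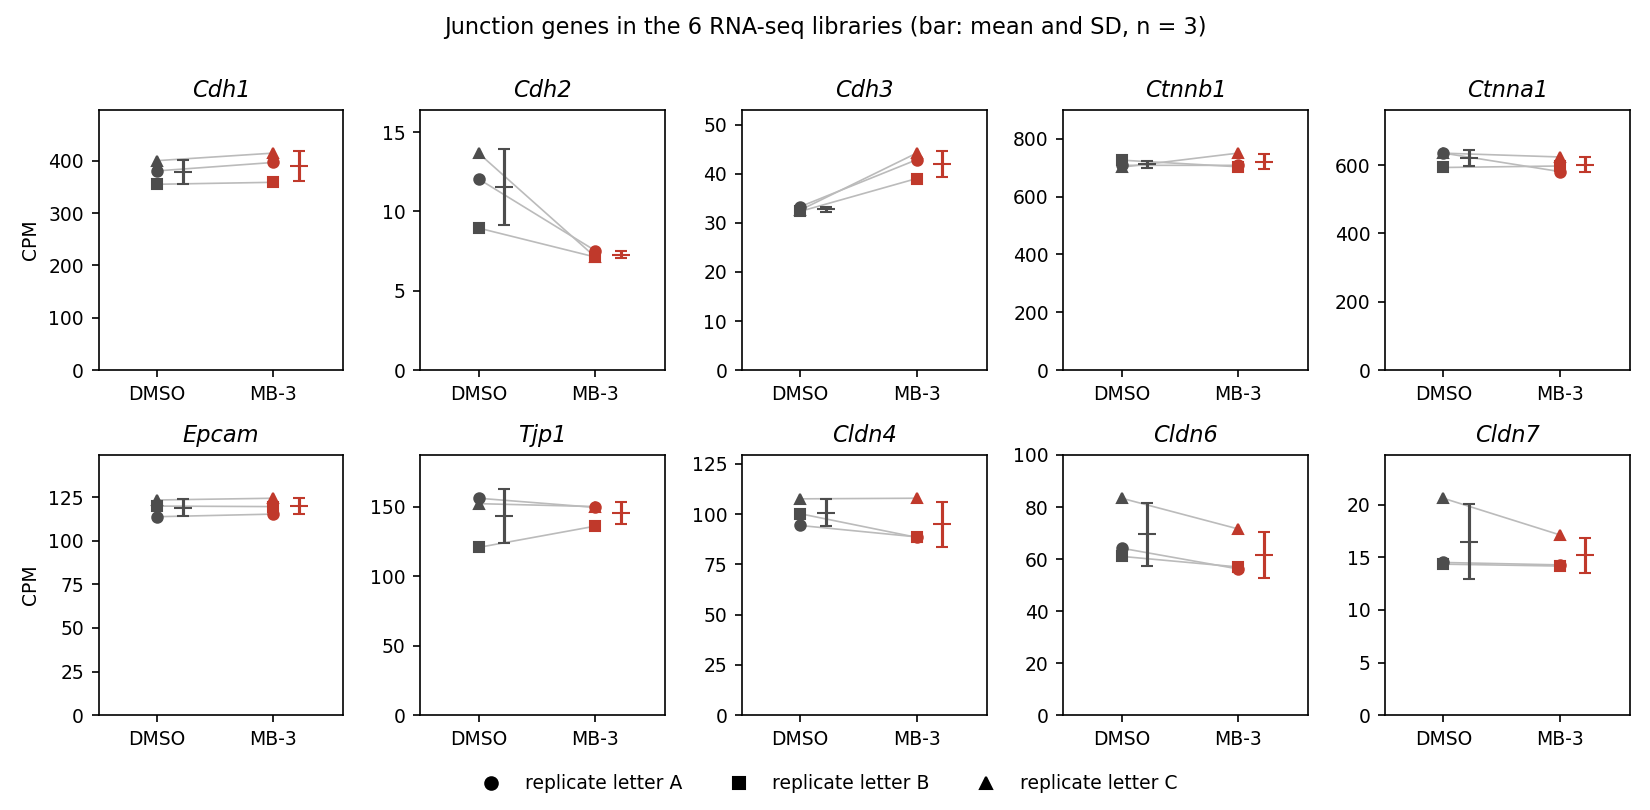
Each panel shows 1 gene, with CPM on the vertical axis from 0 and 3 libraries per treatment (DMSO grey, MB-3 red, grey lines joining libraries of the same letter). Bars give the mean and SD. Cdh2 was lower in all MB-3 libraries (7.13 to 7.54 CPM) than in all DMSO libraries (8.95 to 13.7 CPM), Cdh3 was higher, and the other panels overlap.

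Cdh2 lies on chromosome 18 from 16588877 to 16809246 on the minus strand of GRCm38 (ENSMUSG00000024304). It was measured at 12.1, 8.95 and 13.7 CPM in DMSO libraries A, B and C and at 7.54, 7.13 and 7.14 CPM in the MB-3 libraries. The DMSO libraries differed among themselves by 1.53-fold, with B lowest and C highest, while the MB-3 libraries were within 1.06-fold of each other. Reads were few but not scarce, from 306 to 652 per library. The log2 fold change was -0.67 ± 0.13 (SE), or 0.629-fold (95% interval 0.516 to 0.767). With treatment alone the edgeR adjusted p was 0.0644, and with the replicate block the gene fell by 0.65 in log2 terms, at an adjusted p of 1.56e-05. The direction was the same within letters A, B and C, at -0.68, -0.33 and -0.94. Without DMSO library B the gene passed with treatment alone as well, at -0.82 (adjusted p = 0.000402), but it did not pass when any of the other 5 libraries was the one left out. The adjusted p was 0.17 and 0.233 without DMSO libraries A and C, and 0.356, 0.345 and 0.112 without MB-3 libraries A, B and C, with log2 fold changes from -0.70 to -0.53. With the block it passed when both libraries of any 1 letter were left out, with adjusted p-values from 3.45e-06 to 0.000221.

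Cdh3 stands next to Cdh1 on chromosome 8, on the same strand. Cdh3 (ENSMUSG00000061048) spans 106510891 to 106557297 and Cdh1 (ENSMUSG00000000303) 106603351 to 106670246, with 46053 bases between them. Cdh3 was measured at 33.3, 32.4 and 32.6 CPM in DMSO libraries A, B and C and at 42.9, 39.1 and 44.3 CPM in the MB-3 libraries. The DMSO libraries were nearly level and all MB-3 libraries lay above them. Cdh3 rose 1.28-fold (95% interval 1.17 to 1.42), a log2 fold change of 0.36 ± 0.07 (SE), with an edgeR adjusted p of 0.0488 by treatment alone and 2.8e-05 with the replicate block. The rise was seen in each letter, at 0.36, 0.27 and 0.44 on the log2 scale. The adjusted p of the fit by treatment alone sits at the threshold. It was 0.014 without DMSO library B, but 0.11 and 0.164 without DMSO libraries A and C, and 0.346, 0.165 and 0.109 without MB-3 libraries A, B and C, with log2 fold changes from 0.32 to 0.41.

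Cdh1 was measured at 381, 355 and 401 CPM in DMSO libraries A, B and C and at 397, 359 and 415 CPM in the MB-3 libraries. The groups overlapped and the order of the letters was the same in both treatments, with C highest and B lowest. The log2 fold change was 0.04 ± 0.07 (SE), with a 95% interval from 0.931-fold to 1.14-fold and an edgeR adjusted p of 0.858. The difference of its neighbour Cdh3 from DMSO, 0.36, lay outside that interval, in which the upper limit was 0.19 on the log2 scale.

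**Figure D2:**
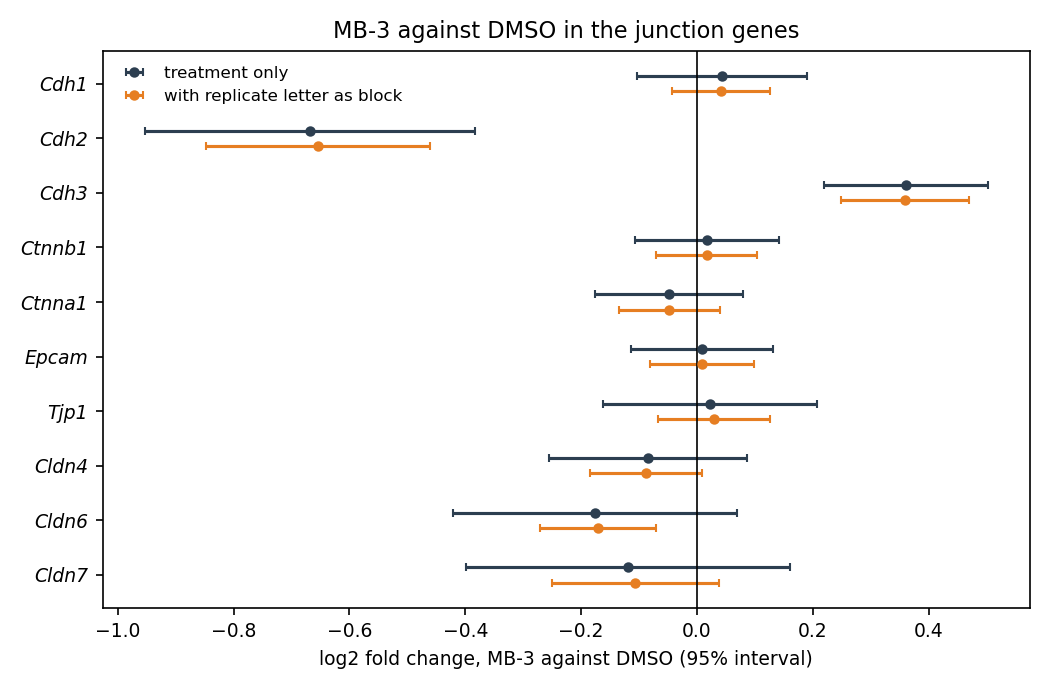
The horizontal axis gives the log2 fold change of MB-3 against DMSO with its 95% interval for each of the 10 genes, from the edgeR fit by treatment alone (dark) and with the replicate letter as a block (orange). The intervals of Cdh2 and Cdh3 lie clear of 0 in both fits, that of Cldn6 lies clear of 0 with the block only, and those of the other 7 genes cross 0 in both.

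The third question was the balance between E-cadherin and N-cadherin, for which the ratio within each library does not depend on library size. E-cadherin RNA exceeded N-cadherin RNA in every library. Per kb of exon, the Cdh1 to Cdh2 ratio was 55.8, 70.0 and 51.7 in DMSO libraries A, B and C and 93.0, 88.9 and 102.6 in the MB-3 libraries. Every MB-3 ratio was above every DMSO ratio, with means of 59.1 ± 9.63 and 94.8 ± 7.04 (SD, n = 3). By the mean log2 ratios, the ratio was 1.61-fold higher with MB-3 (0.69 on the log2 scale), with a two-sided exact permutation p of 0.1, the smallest that 3 libraries against 3 can give. Within letters the log2 difference was 0.74, 0.34 and 0.99. In the edgeR fit by treatment alone the log2 fold change was 0.04 for Cdh1 and -0.67 for Cdh2. The ratio thus mostly restates the Cdh2 difference, and its p is not separate support.

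The same comparison with P-cadherin gave a wider difference, since Cdh3 and Cdh2 differed in opposite directions. The Cdh3 to Cdh2 ratio per kb averaged 5.38 ± 1.16 for the DMSO libraries and 10.7 ± 0.681 for the MB-3 libraries (SD, n = 3), which by the mean log2 ratios is 2.01-fold. The Cdh1 to Cdh3 ratio went the other way, from 11.1 ± 0.632 to 8.89 ± 0.0906 (SD, n = 3), a log2 difference of -0.32. The groups of the Cdh1 to Cdh3 ratio did not overlap, with an exact permutation p of 0.1, again the smallest possible. With log2 fold changes of 0.04 for Cdh1 and 0.36 for Cdh3, this ratio mostly restates the Cdh3 difference. For Cdh3 to Cdh2 no test is given, since the separation of the ratio follows from that of both genes. Of the RNA of the 3 cadherins per kb, Cdh1 made up 90.2 to 90.6% in DMSO and 88.9 to 89.2% in MB-3. The share of Cdh3 was 7.69 to 8.56% and 9.92 to 10.1%, and that of Cdh2 was 1.29 to 1.75% and 0.870 to 1.00%. P-cadherin was thus the middle one of the 3 by level in all 6 libraries.

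**Figure D3:**
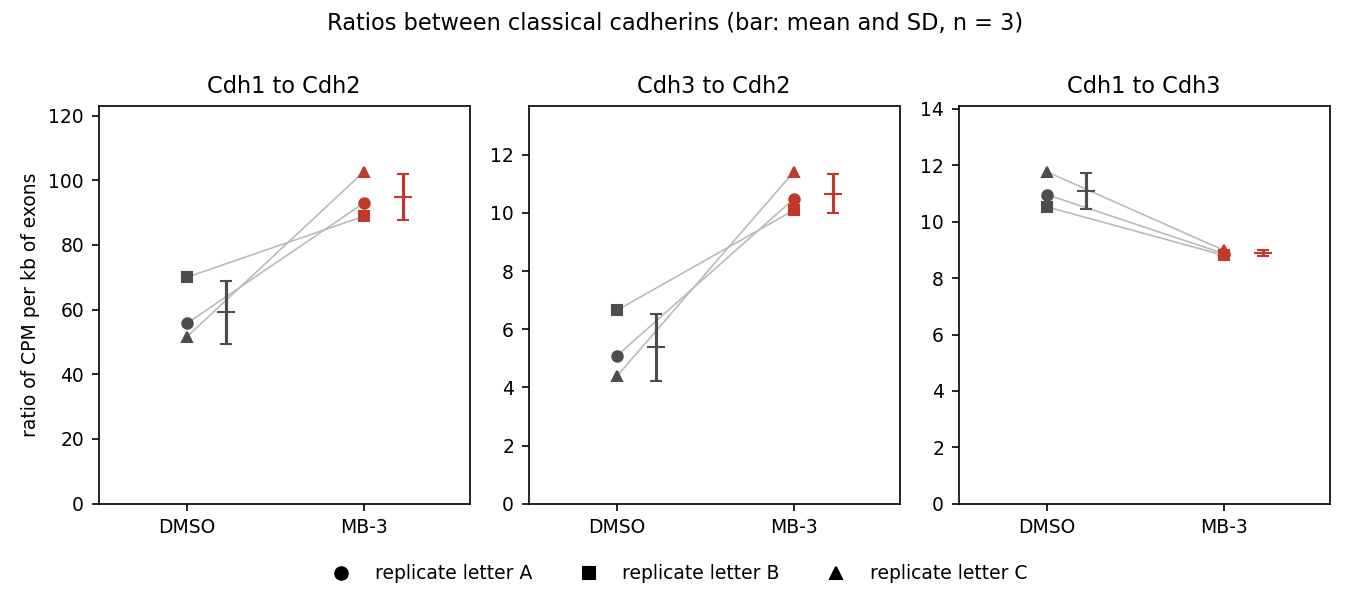
Ratios of CPM per kb of exons between pairs of cadherins are plotted per library, with axes from 0, DMSO in grey, MB-3 in red, lines joining libraries of the same letter and bars for the mean and SD. The groups do not overlap in any panel: both ratios over Cdh2 were higher with MB-3 and the Cdh1 to Cdh3 ratio was lower.

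The catenins, which link cadherins to actin, did not separate by treatment. Ctnnb1 was measured at 708, 726 and 701 CPM in DMSO and 708, 703 and 750 CPM in MB-3, in the order A, B, C, with a log2 fold change of 0.02 ± 0.06 (SE) and an adjusted p of 0.938. Ctnna1 was measured at 635, 593 and 635 CPM in DMSO and 581, 598 and 624 CPM in MB-3, with -0.05 ± 0.06 (SE) and an adjusted p of 0.812. The Ctnna1 value was -0.02 without MB-3 library A, -0.03 without DMSO library A or C, and -0.08 without DMSO library B or MB-3 library C. These intervals allowed at most a 0.929-fold to 1.10-fold difference for Ctnnb1 and a 0.886-fold to 1.06-fold difference for Ctnna1. Ctnnb1 overlaps Ulk4 and Ctnna1 overlaps Lrrtm2 on the opposite strand, and whether the counting used strand is not stated in the sources used here, so reads from the partners cannot be told apart.

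The groups overlapped for Epcam and Tjp1 as well. Epcam was measured at 114, 120 and 123 CPM in DMSO libraries A, B and C and 115, 120 and 124 CPM in the MB-3 libraries, a log2 fold change of 0.01 ± 0.06 (SE). Tjp1, which encodes the tight junction scaffold ZO-1, was measured at 156, 121 and 152 CPM in DMSO and 150, 136 and 150 CPM in MB-3, a log2 fold change of 0.02 ± 0.09 (SE). Library B was the low one in both treatments for Tjp1. The 95% intervals were 0.924-fold to 1.10-fold for Epcam and 0.894-fold to 1.15-fold for Tjp1.

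The claudins, which form the strands of the tight junction, differed more between letters than between treatments. Cldn6, a claudin of early embryonic epithelia, was measured at 64.2, 61.0 and 83.4 CPM in DMSO libraries A, B and C and 56.2, 57.0 and 71.6 CPM in the MB-3 libraries. Library C stood highest in both treatments, and within each letter the MB-3 library was lower, by -0.19, -0.10 and -0.22 on the log2 scale. By treatment alone the log2 fold change was -0.18 ± 0.11 (SE) with an adjusted p of 0.606. It rested largely on DMSO library C, without which it was -0.025, and it was -0.11 without MB-3 library A and -0.30 without MB-3 library C. With the replicate block Cldn6 fell by 0.17 in log2 terms, at an adjusted p of 0.0282, and with the letters left out in turn the adjusted p was 0.159 without A, 0.0418 without B and 0.155 without C.

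Cldn4 was measured at 94.4, 100.2 and 107.6 CPM in DMSO and 88.7, 88.4 and 107.9 CPM in MB-3, and Cldn7 at 14.5, 14.3 and 20.6 CPM in DMSO and 14.3, 14.2 and 17.1 CPM in MB-3. Library C was again highest in both treatments for both genes. Neither passed in either fit, with adjusted p-values of 0.740 and 0.782 by treatment alone. The log2 fold changes were -0.08 and -0.12, and that of Cldn7 turned to 0.07 without DMSO library C. That of Cldn4 was -0.19 without MB-3 library C, -0.13 without DMSO library A and -0.04 without DMSO library C, MB-3 library A or MB-3 library B. Across the 10 genes, library C held the highest value of 6 in DMSO and of 9 in MB-3, and library B the lowest value of 7 in each. Within a treatment the highest library exceeded the lowest by between 1.03-fold (Cdh3 in DMSO) and 1.53-fold (Cdh2 in DMSO).

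The cadherin result was set beside the markers of other cell states that these cultures could hold. The mesendoderm markers summed to 26.8, 16.6 and 49.5 CPM in DMSO libraries A, B and C and to 11.2, 8.97 and 14.4 CPM in MB-3, with T (Brachyury) the most abundant of the 9. Their order in DMSO, with C highest and B lowest, was the order of Cdh2, but also that of Cdh1, Cldn6 and Cldn7. In MB-3 the sum was highest in library C, whereas Cdh2 was highest in A, with its libraries within 1.06-fold of each other. T was measured at 16.5, 9.05 and 32.5 CPM in DMSO and 4.68, 3.58 and 7.44 CPM in MB-3, with groups that did not overlap. Gsc, Foxa2, Mesp1 and Cer1 stayed below 1 CPM in every library. Lhx1, a homeobox gene of the early mesendoderm, fell after MB-3 (log2 fold change -2.89 ± 0.42 (SE), edgeR adjusted p = 0.0243), although from a level of at most 1.55 CPM. With the replicate block T, Mixl1, Eomes and Lhx1 all fell, 4 of the 6 tested markers, where 3.9% of all tested genes fell in that fit. Their part in the Cdh2 result was not tested.

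Vimentin, an intermediate filament protein of mesenchymal cells, fell as well. Vim was measured at 119, 115 and 153 CPM in DMSO libraries A, B and C and at 71.9, 73.5 and 76.9 CPM in MB-3, a log2 fold change of -0.80 ± 0.09 (SE) with an edgeR adjusted p of 0.0135. Among the 10 fibroblast-like markers, of which Vim is one, Col3a1, Dcn, Lum and Postn were below 1 CPM in every library. That list summed to 1790, 1306 and 1619 CPM in DMSO and 1605, 1435 and 1484 CPM in MB-3, of which Fn1, a gene also expressed by ES cells, took 92.9%. With the block 3 of its 8 tested genes fell, Vim, Col1a1 and Col1a2, against the same 3.9% of all tested genes. By treatment alone no gene of the whole table passed without MB-3 library A or without MB-3 library B, Tbx3, Lhx1 and Vim included. Their part in the Cdh2 result was not tested either.

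**Figure D4:**
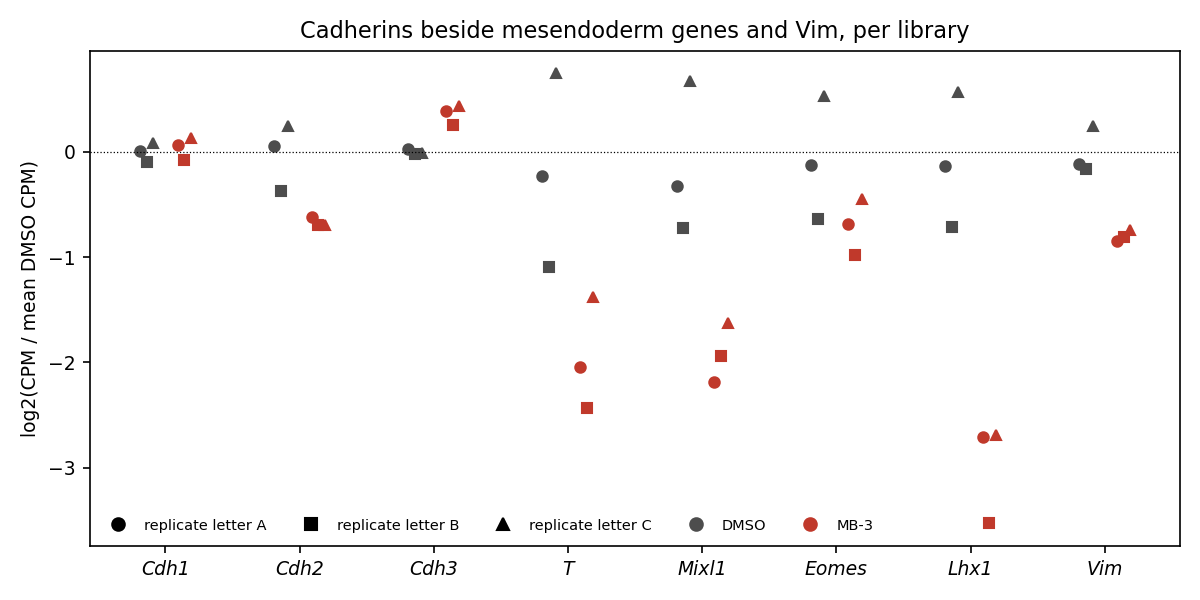
The vertical axis is log2 of the CPM of each library over the mean DMSO CPM of that gene, so that 0 is the DMSO mean, with DMSO in grey, MB-3 in red and a symbol for each letter. Cdh1 stays near 0 and Cdh3 rises, while Cdh2 and Vim lie below DMSO in every MB-3 library, as do T, Mixl1 and Lhx1 over a longer scale. The groups of Eomes, also plotted, overlap.

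The remaining marker lists were summed in the same way. Trophoblast and simple epithelium markers, which include keratins of simple epithelia, summed to 186, 118 and 312 CPM in DMSO libraries A, B and C and to 96.4, 76.4 and 149 CPM in MB-3. Krt18 was the most abundant of the 9 and Elf5 was below 1 CPM throughout, and with the block Krt8, Krt18 and Krt19 fell, 3 of the 8 tested (37.5%, against 3.9% of all tested genes). Neuroectoderm markers summed to 118.9 ± 9.38 and 112.6 ± 2.72 CPM (SD, n = 3), with Tubb3 the most abundant of the 7 and Pax3, Olig3 and Neurog2 below 1 CPM in every library, and with the block Pax6 rose and Nes fell among the 5 tested, 20.0% in each direction beside 3.22% and 3.9% of all tested genes. Extraembryonic endoderm markers summed to 63.8 ± 8.38 and 56.3 ± 2.64 CPM (SD, n = 3), with Lama1 the most abundant of the 8 and Gata6, Sox7, Sox17 and Pdgfra below 1 CPM in every library. All 7 tested genes of that list had log2 fold changes below 0, as 10073 of the 20027 tested genes did, and with the block 1 fell, Col4a1 (block adjusted p = 4.83e-05), which is 14.3% beside 3.9% of all tested genes.

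The remaining components of cell contacts were examined by lists of related genes. In the fit by treatment alone no gene of the 5 other junction and repressor lists or of the epithelial regulators passed an adjusted p of 0.05, although 20 of the 75 tested had an unadjusted edgeR p under 0.05, which is 26.7% beside 10.9% of all tested genes. DESeq2 called 2 of them and 185 genes in all. With the replicate block 12 of the 75 tested passed, in 4 of the 6 lists, beside 7.12% of all tested genes. Of the other adherens junction genes, 16 of 20 were tested, 1 rose and none fell with the block, with a median log2 fold change of -0.03. That is 6.25% of the tested list, no more than the 7.12% of all tested genes. The gene was Lima1, which encodes the actin-binding protein EPLIN that joins α-catenin to actin. It was measured at 192, 178 and 166 CPM in DMSO libraries A, B and C and 222, 224 and 209 CPM in MB-3, groups that did not overlap, a 1.22-fold difference (adjusted p = 0.093 by treatment alone and 2.52e-05 with the block). Nectin2 and Jup, the other abundant members, had log2 fold changes of 0.02 and -0.02.

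Of the other tight junction genes, 20 of 25 were tested, 1 rose and 2 fell with the block (15.0% passed, against 7.12% of all tested genes), with a median log2 fold change of -0.06. Cxadr, an adhesion molecule and virus receptor of the tight junction, fell with the block from 30.5 to 37.4 CPM to 27.1 to 29.7 CPM (block adjusted p = 0.0026), and Marveld2, which encodes tricellulin, fell with it from 3.81 to 6.34 CPM to 2.79 to 4.71 CPM (block adjusted p = 0.00754). Cxadr passed with the block whichever letter was left out, but Marveld2 did not pass without letter A (adjusted p = 0.183). By treatment alone the log2 fold change of Marveld2 was -0.51, or -0.31 without DMSO library C. With the block it was -0.513, or -0.361 without letter A and -0.565 without letter C. Cxadr overlaps Btg3 on the opposite strand. F11r and Crb3, the other abundant members, had log2 fold changes of -0.06 and -0.15 and passed in neither fit.

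Desmosomal and related epithelial adhesion genes leaned lower. Of 16 genes 13 were tested, 11 had a log2 fold change below 0, and the median was -0.10. With the block 5 of the 13 fell (38.5%, against 3.9% of all tested genes), among them Perp, Dsp, Dsc2 and Spint1. Spint1 did not pass when any 1 letter was left out (adjusted p = 0.077, 0.11 and 0.312 without A, B and C), while Perp, Dsp and Dsc2 passed each time. Perp, which encodes a desmosome-associated membrane protein, was measured at 20.5, 15.7 and 30.0 CPM in DMSO libraries A, B and C and 14.5, 12.7 and 17.3 CPM in MB-3, with letter C highest and B lowest in both treatments. Dsp, which encodes the desmosomal plaque protein desmoplakin, was measured at 35.6, 25.2 and 43.1 CPM in DMSO and 27.7, 21.3 and 30.1 CPM in MB-3, in the same order of letters. Their log2 fold changes were -0.58 ± 0.18 and -0.39 ± 0.16 (SE), with edgeR adjusted p-values of 0.258 and 0.388 by treatment alone and 5.04e-06 and 4.19e-05 with the block. Dsp overlaps a gene model on the opposite strand. The sums of the keratin-bearing and mesendoderm marker lists had the same order of letters in both treatments and were lower with MB-3 in each letter, and their part in these falls was not tested. Dsc2, a desmosomal cadherin, had a log2 fold change of -0.57 (block adjusted p = 0.0026). By treatment alone these sizes depended on DMSO library C, without which they were -0.29 for Perp, -0.20 for Dsp and -0.30 for Dsc2. That of Dsc2 was -0.38 without MB-3 library B. With the block they were -0.548, -0.378 and -0.554, and -0.412, -0.305 and -0.513 when both libraries of letter C were left out. By treatment alone Spint1 was at -0.18, or -0.12 without DMSO library C. Without DMSO library B Perp, Dsp and Dsc2 passed by treatment alone (adjusted p = 0.00561, 0.0112 and 0.0194). Spint2 and Pkp4, abundant members, had -0.03 and -0.05.

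In the gap junction list 8 of 9 genes were tested and none passed with the block, against 7.12% of all tested genes, although 2 had an unadjusted p under 0.05 by treatment alone, which 10.9% of all tested genes had. Gja1, which encodes connexin 43, the main connexin of ES cells, was measured at 207 to 208 CPM in DMSO and 216 to 237 CPM in MB-3, groups that did not overlap, with a log2 fold change of 0.12 and a block adjusted p of 0.0916. Gjc1 had a log2 fold change of -0.03.

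The repressors of E-cadherin were at low levels per kb of exon. With all 6 libraries 0 of the 7 tested of 8 passed in either edgeR fit, against 0.205% and 7.12% of all tested genes. By treatment alone 1 had an unadjusted p under 0.05, against 10.9%. That was Twist1, singled out after its values were seen, at 1.97, 1.77 and 2.33 CPM in DMSO libraries A, B and C and 1.45, 1.37 and 1.66 CPM in MB-3. Its groups did not overlap and each letter was lower with MB-3, with a log2 fold change of -0.44 ± 0.18 (SE) and edgeR adjusted p-values of 0.391 by treatment alone and 0.141 with the block. Snai1, which encodes Snail, was measured at 2.18, 2.87 and 3.80 CPM in DMSO libraries A, B and C and 2.95, 1.75 and 1.94 CPM in MB-3. These values overlapped, and the log2 fold change was -0.41 ± 0.23 (SE) with an adjusted p of 0.548. Within letters A, B and C the log2 difference was 0.44, -0.71 and -0.97, so the direction was not shared. By treatment alone the log2 fold change was -0.18 without DMSO library C, -0.68 without MB-3 library A and -0.27 without MB-3 library B. In the edgeR block fit it was -0.40 (adjusted p = 0.214) with all letters and -0.85 (adjusted p = 0.00111) without letter A. Without letter B it was -0.26 (adjusted p = 0.651), and without letter C -0.11 (adjusted p = 0.84). Zeb1 had a log2 fold change of -0.20 ± 0.10 (SE), or -0.10 without MB-3 library C and -0.30 without MB-3 library A, and Tcf4, which encodes the E-box factor E2-2, one of 0.03 ± 0.07 (SE). Per kb of exon the 3 most abundant members, Snai1, Zeb1 and Tcf4, were at 1.59, 1.30 and 1.28 CPM per kb. Not divided by length, Zeb1 was at 10.7 to 15.0 CPM and Tcf4 at 32.6 to 38.1 CPM over the 6 libraries.

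The epithelial regulators leaned the other way. Of 12 genes 11 were tested, 10 had a log2 fold change above 0, the median was 0.17, and 6 had MB-3 libraries all above the DMSO libraries (54.5%, against 8.22% of all tested genes). With the block 3 rose, Esrp1, Grhl1 and Tfap2c (27.3%, against 3.22% of all tested genes). Esrp1, a splicing factor that favours epithelial isoforms, was measured at 69.7, 64.4 and 72.1 CPM in DMSO libraries A, B and C and 82.1, 76.3 and 90.6 CPM in MB-3, a 1.21-fold difference (adjusted p = 0.174 by treatment alone and 0.00028 with the block). Grhl1, a grainyhead transcription factor of epithelia, had a log2 fold change of 0.31 ± 0.09 (SE, block adjusted p = 0.0184), and Tfap2c, the transcription factor AP-2γ, one of 0.17 ± 0.06 (SE, block adjusted p = 0.0322). Esrp1 passed with the block whichever letter was left out, whereas Grhl1 did not pass without B (adjusted p = 0.0735) or C (0.275), and Tfap2c did not pass without A (0.0536), B (0.142) or C (0.189). Klf5, the other abundant member, had 0.01 ± 0.07 (SE). Esrp1 overlaps a gene model on the opposite strand.

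**Figure D5:**
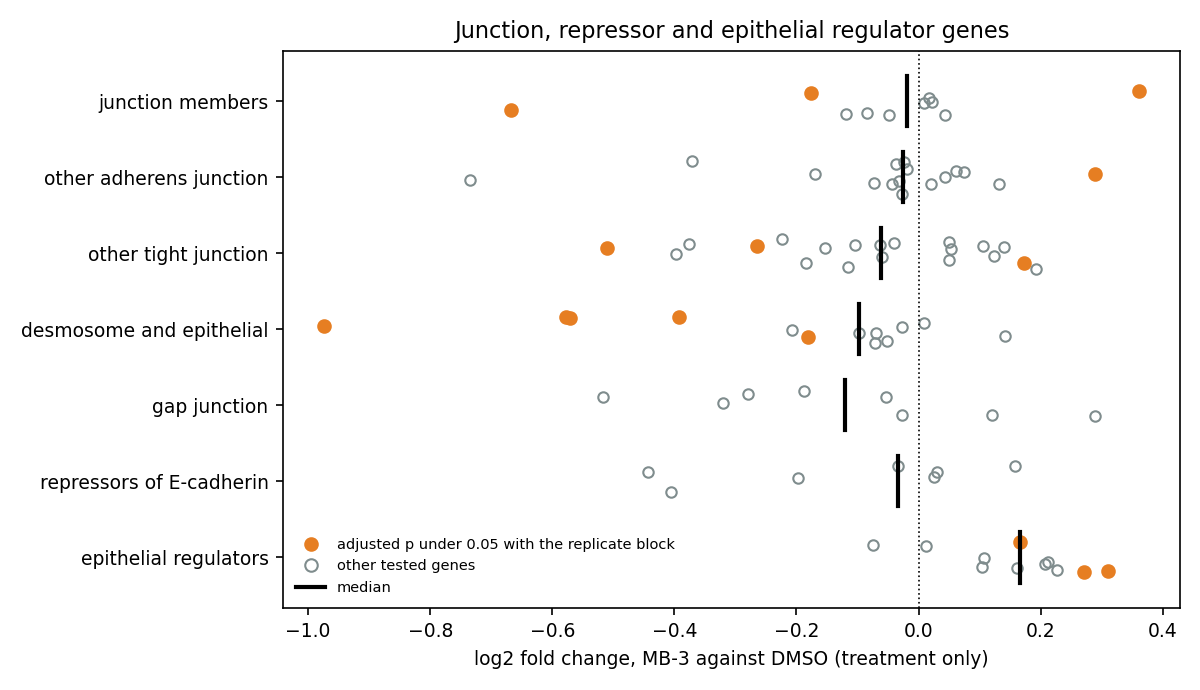
Each point is a tested gene, placed by its log2 fold change in the fit by treatment alone, with a row for the 10 junction genes and one for each related list. Filled orange points passed an adjusted p of 0.05 with the replicate block and vertical bars are medians. The epithelial regulators lie mostly above 0 (median 0.17) and the desmosomal list mostly below (median -0.10).

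The genes most like Cdh1 and Cdh2 over the 6 libraries were named by Pearson's correlation of log2(CPM + 0.5). With 6 points, which share letters and treatments, high values are common: 184 tested genes reached 0.9 with Cdh1 and 419 did so with Cdh2. Closest to Cdh1 were C77080 (r = 0.996), Aloxe3, Dnajc5, Arhgef2 and Gm45493 (r = 0.988). C77080, for example, was highest in library C and lowest in library B in both treatments, as Cdh1 was. Closest to Cdh2 were Gm12551 (r = 0.995), Wnt11, Uggt2, Olfm1 and Pdgfrb (r = 0.987). Wnt11, a Wnt ligand, was measured at 0.395, 0.239 and 0.545 CPM in DMSO libraries A, B and C and 0.181, 0.137 and 0.163 CPM in MB-3.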

How the data were processed

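The 6 RNA-seq libraries, 3 per treatment, are single-end reads of polyadenylated RNA taken after 48 hours of culture. The authors aligned the reads with Bowtie to mm10 and deposited raw counts per Ensembl gene, made at exons with GenomicAlignments; versions, the annotation and the use of strand are not given in the sources used here, and the submitters' processing notes also name DESeq. Of 30677 genes, 30540 were matched to GENCODE M21 (GRCm38, the assembly of mm10) for symbols, coordinates and exon lengths, and 0 count columns were left unused. Deposited H3K9ac peak lists are on mm9 and were not used here.

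Libraries were grouped by the labels. Genes were kept by filterByExpr, scaled by TMM and tested with edgeR 4.0.16 (R 4.3.3) quasi-likelihood fits over all 20027 genes, treatment as the only term, with Benjamini-Hochberg adjustment and a threshold of 0.05. Exact permutation tests used scipy 1.17.1. Alternatives were other normalizations and filters, DESeq2 1.42.0, limma-voom (limma 3.58.1), each library left out, and the replicate letter as a block. Deviations from group means correlated at 0.184, 0.381 and 0.292 between libraries of the same letter and at -0.297 to -0.024 between others, so the letters were taken as pairs. The pairing comes from the data, since the labels give only the letter. Fits with the block and 1 letter left out were added after seeing the data. Libraries of the same treatment differed by more than sampling noise (chi-square per gene 8.40 to 17.1). The study's methods give the treatments as triplicates and, in the sources used here, say no more of how separate these were. The p-values by treatment alone therefore measure the spread between those triplicates. Those with the block measure what is left of that spread once differences between letters are taken out.

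The members, lists and tests were chosen with earlier results of these data known. The text names all 10 members and, from each list, the 3 most abundant genes per kb, those past the threshold by treatment alone, and up to 3 with the smallest p past it with the block. From the marker lists, it names the most abundant and the defining genes. For Cdh1 and Cdh2 it names the 5 most correlated genes. Some genes that the rule names are not reported here, though the counts include them. Spint1, Wnt11 values and the marker genes called were added after their values were seen. Promoter sequences are RefSeq's, GRCm38.p6.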

Additional observations from a re-analysis of the deposited data

How the results depend on the processing

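Precision is set by 3 libraries per treatment: the log2 fold changes of the 10 junction genes had a median SE of 0.074, and 5 of the 10 were smaller in size than that. The number of the 10 junction genes that passed was 1 by treatment alone and with RLE normalization, 0 with upper quartile normalization, with a minimum of 1 CPM in 3 libraries and with limma-voom, 2 without a filter and with DESeq2, 0 to 2 with a library left out, 3 with the replicate block, and 2, 3 and 2 with the block without letters A, B and C. For the other junction and regulator lists together it was 0 by treatment alone, 1 without a filter, 2 with DESeq2, 0 to 5 with a library left out, 12 with the replicate block, and 10, 9 and 9 with the block without letters A, B and C. Over all tested genes it was 41 by treatment alone, 25 with upper quartile normalization, 194 without a filter, 24 with the minimum of 1 CPM, 185 with DESeq2, 18 with limma-voom, 1425 with the replicate block, and 939, 912 and 1037 with the block without letters A, B and C. With a library left out it was 3 without DMSO A, 520 without DMSO B, 5 without DMSO C, 0 without MB-3 A, 0 without MB-3 B and 62 without MB-3 C. The cause was not tested. The log2 difference of the Cdh1 to Cdh2 ratio was 0.60 to 0.82 with a library left out, that of Cdh3 to Cdh2 0.87 to 1.17, and that of Cdh1 to Cdh3 -0.35 to -0.27. The replicate block leaves these mean differences as they are. As a share of Cdh1 and Cdh2 counts, Cdh1 was 96.7 to 97.5% in DMSO and 98.1 to 98.3% in MB-3.

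Of 160 values of the junction genes under alternatives, 133 kept their direction and side of the threshold. Signs turned for 5 of the junction genes, of which Cldn7 was the farthest from 0 at -0.12. With a library left out, the log2 fold change ranged from -0.003 to 0.098 for Cdh1, -0.013 to 0.033 for Ctnnb1, -0.023 to 0.036 for Epcam, -0.086 to 0.089 for Tjp1, -0.212 to 0.073 for Cldn7, -0.012 to 0.047 for Nectin2, -0.084 to 0.013 for Jup, -0.114 to 0.019 for Spint2, -0.015 to 0.101 for Tcf4 and -0.022 to 0.076 for Klf5. With the replicate block and a letter left out it was -0.023 for Ctnnb1 without C, -0.043 for Tjp1 without B, -0.005 for Nectin2 without A, 0.028 for Jup without B, 0.031 for Spint2 without B, -0.004 for Tcf4 without B and -0.032 for Klf5 without C. None of these 10 genes passed the threshold in any of those fits. Cdh2 and Cdh3 kept their direction in every alternative run. On library sizes without TMM, the log2 range between libraries of a treatment was 0.13 for Cdh2 in MB-3 and 0.07 for Cdh3 in DMSO, and 0.01 and 0.15 for Ctnnb1 in DMSO and MB-3.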
